A study of Homo sapiens with 8 samples.

Results

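The 9 genes described here encode transcription factors that commit neural precursors to a neuronal fate: the neurogenins NEUROG1 and NEUROG2, the NEUROD factors NEUROD1 and NEUROD4, the zinc-finger factors INSM1 and INSM2, and the MYT1 family members MYT1, MYT1L and ST18. They were taken by name from 58217 genes with a matched transcript, of which 18201, with all 9 among them, had enough counts to be tested. The samples were oligodendrocyte progenitor cells (OPCs). They had been derived from the human embryonic stem cell line H9, an established line, and in no group was SOX10 forced on. They were seeded at one density in OPC medium and grown for 2 days on 1 of 3 coatings: Matrigel (the control, a basement membrane extract), vitronectin (VN) or VNP2, a designed peptide derived from vitronectin. Poly(A) RNA was sequenced in 8 libraries, namely Matrigel replicates 2 and 3, VN replicates 1 to 3 and VNP2 replicates 1 to 3.

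Neurogenins and NEUROD factors are basic helix-loop-helix (bHLH) proteins that pair with widely expressed E proteins and bind E boxes (CANNTG) at the genes they activate. In a precursor that commits to become a neuron, a neurogenin acts early and briefly and induces the Notch ligand DLL1, which through Notch and the HES and HEY repressors holds neighbouring cells back from the same fate. NEUROD factors, INSM1 and the MYT1 family follow downstream, INSM1 being a repressor also needed in endocrine cells, and MYT1L a repressor of non-neuronal genes that stays on in mature neurons. ID proteins oppose the bHLH members by binding E proteins. In the oligodendrocyte lineage, neurogenin activity is known to favour neurons over oligodendrocytes, whereas MYT1 is also present in oligodendrocyte progenitors.

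Depth was even, with 37997896 to 39429453 estimated counts per library. Replicates of a substrate were treated as separate samples, although the labels do not state separate cultures, so that p-values measure the spread between these libraries, which may be technical. VN replicate 1 stood somewhat apart from the other VN libraries, with a median chi-square per gene of 2.08 and 2.04 against them, compared with 1.18 between the Matrigel libraries. Of the markers of OPCs, OLIG2 was present at 40.0 to 54.6 TPM (a level scaled by transcript length and library size) and PDGFRA at 3.67 to 4.98 TPM, whereas SOX10, which defines the committed oligodendrocyte lineage, was listed at 0 on Matrigel and reached at most 0.0778 TPM. TUBB3, a tubulin of neurons, was present at 527 to 596 TPM. In bulk RNA, fewer cells of a type and less RNA per cell cannot be told apart.

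The bHLH members form a family through their DNA-binding region. To show this likeness, 48 coding bases at the start of the bHLH region are given for the annotated main transcript of each, with the 26 bases that all 4 genes share in capitals (GENCODE v29).

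NEUROG1: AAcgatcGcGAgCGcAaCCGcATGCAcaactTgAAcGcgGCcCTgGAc

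NEUROG2: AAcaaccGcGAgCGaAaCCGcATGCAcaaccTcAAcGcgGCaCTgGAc

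NEUROD1: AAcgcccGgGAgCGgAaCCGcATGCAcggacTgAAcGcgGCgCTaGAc

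NEUROD4: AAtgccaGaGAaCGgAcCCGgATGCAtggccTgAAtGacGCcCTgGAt

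NEUROG1 and NEUROG2 were the closest pair, with 42 of 48 bases identical, and NEUROG2 and NEUROD4 the most distant, with 30.

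In the annotation used (GENCODE v29, GRCh38), NEUROG1 lies at chr5:135534282-135535949, NEUROG2 at chr4:112513516-112516172, NEUROD1 at chr2:181673088-181680876 and MYT1L at chr2:1789113-2331664, all on the minus strand, as does ST18 at chr8:52110839-52460959. NEUROD4 at chr12:55019945-55030014, INSM1 at chr20:20368121-20370949, INSM2 at chr14:35534042-35537054 and MYT1 at chr20:64102394-64242253 are on the plus strand. The 4 bHLH genes and both INSM genes carry their whole coding sequence in 1 exon, whereas the main transcripts of MYT1, MYT1L and ST18 have 23, 25 and 26 exons. NEUROD1 shares 236 exon bases with CERKL on the same strand, a gene that had 30 to 78.0 estimated counts per library, so that reads from the shared bases cannot be assigned with certainty. The genes overlapping NEUROG2 and MYT1L on the opposite strand had at most 1 count in any library.

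Levels per length differed widely among the 9 genes. In the plot of TPM by library, INSM1 was far above the rest, at 25.3 to 48.8 TPM. ST18 (3.82 to 9.42 TPM), MYT1 (3.27 to 5.92 TPM) and INSM2 (1.94 to 5.68 TPM) formed a middle group. NEUROG1 had 0.868 to 2.28 TPM and MYT1L 0.467 to 1.76 TPM. The ranges of ST18, MYT1 and INSM2 overlapped with each other. NEUROG1 overlapped with INSM2 and with MYT1L, and MYT1L overlapped with NEUROG2 and NEUROD1. NEUROG2, NEUROD1 and NEUROD4 were near the limit of detection, at 0.0990 to 0.592 TPM among them.

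**Figure D1:**
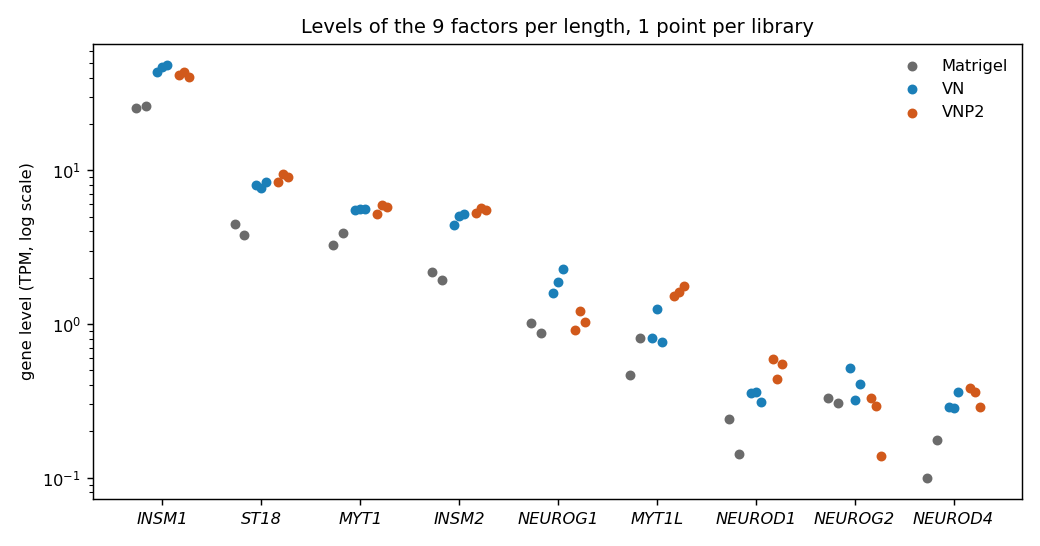
Gene level in TPM (log axis) of the 9 factors, ordered by mean level, with 1 point per library and colours for the 3 substrates (2 Matrigel, 3 VN and 3 VNP2 libraries). INSM1 lies highest, at 25.3 to 48.8 TPM, and NEUROG2, NEUROD1 and NEUROD4 lie below 0.6 TPM in every library.

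By group mean, 8 of the 9 genes were lowest on Matrigel, the exception being NEUROG2. Of the 9, 5 were called higher on VN than on Matrigel (NEUROG1, INSM1, INSM2, MYT1 and ST18) and 7 were called higher on VNP2 than on Matrigel (NEUROD1, NEUROD4, INSM1, INSM2, MYT1, MYT1L and ST18), whereas none was called lower. A gene was called at a Benjamini-Hochberg adjusted p under 0.05 in edgeR's quasi-likelihood test over all genes. Among all 18201 genes, 5.66% were called higher on VN and 7.44% on VNP2, and 9.6% and 9.13% were called lower. In 7 of 9 genes every VN library lay above both Matrigel libraries, as in 21.1% of all genes, and likewise in 7 of 9 for VNP2, as in 23.0% of all genes. In either direction, the libraries did not overlap in 44.4% of all genes for VN and in 48.1% for VNP2. The median log2 fold change of the 9 genes was 0.77 on VN and 1.05 on VNP2, beside medians of 0.0044 and 0.0024 over all genes tested. Both comparisons used the same 2 Matrigel libraries. Across the 3 substrates, 6 of 9 were called, beside 19.3% of all genes.

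**Figure D2:**
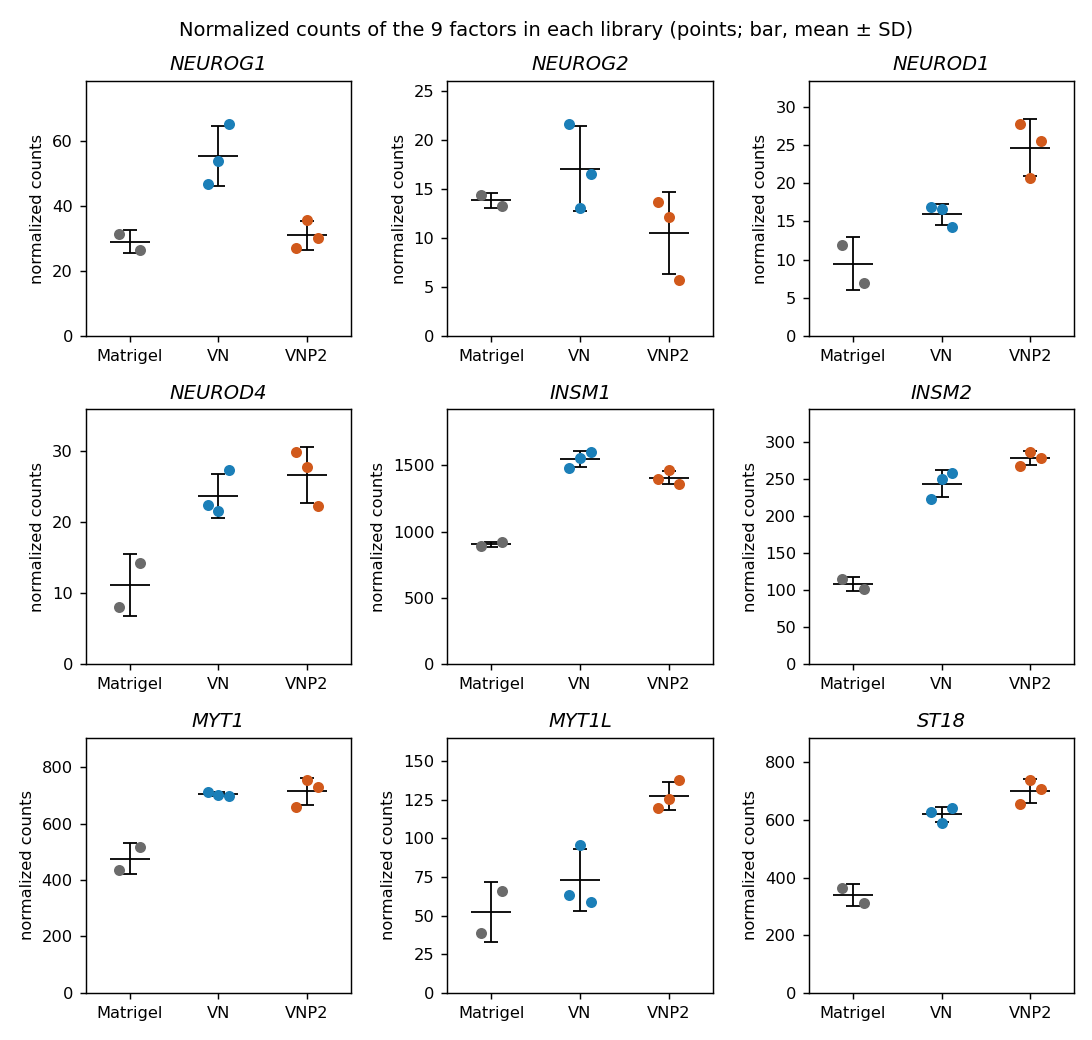
Normalized counts of each factor by substrate, 1 panel per gene with its own axis from 0; points are libraries (n = 2, 3 and 3) and bars the mean ± SD. INSM1, INSM2, MYT1 and ST18 lie higher in every VN and VNP2 library than in both Matrigel libraries, whereas for NEUROG1 the VN libraries lie above the other 5.

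NEUROG1, a neurogenin, was highest on VN. Its normalized counts, which are estimated counts divided by library size and length factors, were 31.4 and 26.6 on Matrigel, 46.9, 53.7 and 65.3 with VN, and 27.1, 35.6 and 30.1 with VNP2. All 3 VN libraries lay above the other 5, and the Matrigel and VNP2 libraries overlapped. It rose 1.90-fold on VN over Matrigel (log2 fold change 0.93, SE 0.249, adjusted p = 0.0312, edgeR). The difference between VNP2 and Matrigel was 0.09 on the log2 scale (95% interval -0.48 to 0.66, adjusted p = 0.864). VNP2 was 0.84 below VN on the log2 scale, in 9 of 9 pairs of libraries, but the adjusted p of 0.0557 missed the threshold. That difference was called in edgeR without length offsets (-0.79, adjusted p = 0.0312) and without a filter on low counts (-0.84, adjusted p = 0.0468). The call on VN was lost in edgeR without Matrigel replicate 2 (log2 fold change 1.06, adjusted p = 0.0996), Matrigel replicate 3 (0.81, adjusted p = 0.183), VN replicate 2 (0.95, adjusted p = 0.0653) or VN replicate 3 (0.79, adjusted p = 0.0960). It was also lost in the edgeR fit of only the libraries of the pair (0.93, adjusted p = 0.0546) and in DESeq2 (0.94, adjusted p = 0.0753).

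NEUROG2, the other neurogenin and the main proneural factor of dorsal forebrain, was near the limit of detection. Normalized counts were 14.4 and 13.3 on Matrigel, 21.6, 13 and 16.5 with VN, and 13.7, 12.1 and 5.75 with VNP2. The 3 groups overlapped and no comparison was called. The 95% interval for VNP2 against Matrigel ran from -1.37 to 0.58 on the log2 scale, so that a 2-fold fall lay within it and was not excluded.

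NEUROD1 and NEUROD4, which act after the neurogenins, were both higher on VNP2 than on Matrigel, at very low counts. NEUROD1 had 11.9 and 6.98 normalized counts on Matrigel, 16.8, 16.6 and 14.3 with VN, and 27.8, 20.6 and 25.6 with VNP2. Its 3 groups did not overlap and followed the order Matrigel, VN, VNP2. NEUROD1 rose 2.59-fold on VNP2 over Matrigel (log2 fold change 1.37, SE 0.363, adjusted p = 0.0263, edgeR), and its difference of 0.75 on VN was not called (adjusted p = 0.211). NEUROD4 had 8.06 and 14.3 on Matrigel, 22.4, 21.5 and 27.3 with VN, and 29.9, 27.7 and 22.3 with VNP2. The VN and VNP2 libraries of NEUROD4 overlapped with each other but not with Matrigel. NEUROD4 rose 2.37-fold on VNP2 (log2 fold change 1.25, SE 0.348, adjusted p = 0.0340, edgeR), while a difference of 1.08 on VN missed the threshold (adjusted p = 0.0642). On VN, NEUROD4 was called in edgeR without length offsets (1.08, adjusted p = 0.0475). It was also called on VN with limma on the authors' normalized counts (1.06, adjusted p = 0.0489).

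These NEUROD calls rested on few counts, with 19 estimated counts for NEUROD1 and 22 for NEUROD4 over both Matrigel libraries. DESeq2 did not call either gene on VNP2 (adjusted p = 0.0904 and 0.100). In edgeR, the NEUROD1 call was also lost without Matrigel replicate 2 (log2 fold change 1.81, adjusted p = 0.0507), Matrigel replicate 3 (1.05, adjusted p = 0.194), VNP2 replicate 1 (1.28, adjusted p = 0.0738) or VNP2 replicate 3 (1.35, adjusted p = 0.0640). The NEUROD4 call was lost in edgeR without Matrigel replicate 2 (0.90, adjusted p = 0.236), VNP2 replicate 1 (1.16, adjusted p = 0.0906) or VNP2 replicate 2 (1.21, adjusted p = 0.0829), and in the fit of only the libraries of the pair (1.24, adjusted p = 0.0512). With a replicate block, neither gene was called on VNP2 (adjusted p = 0.0631 for NEUROD1 and 0.0661 for NEUROD4, edgeR).

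The zinc-finger repressors INSM1 and INSM2 were higher on both VN and VNP2 than on Matrigel. INSM1 had 892 and 918 normalized counts on Matrigel, 1479, 1553 and 1599 with VN, and 1395, 1460.2 and 1361 with VNP2. Every VN and VNP2 library lay above both Matrigel libraries, and all VNP2 libraries lay below all VN libraries. INSM1 rose 1.71-fold on VN (log2 fold change 0.77, SE 0.0582, adjusted p = 1.41e-05, edgeR) and 1.55-fold on VNP2 (0.63, SE 0.0582, adjusted p = 3.70e-05). Between VNP2 and VN the difference was -0.14 (95% interval -0.25 to -0.03) and was not called (adjusted p = 0.165).

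INSM2, a close relative of INSM1 at a lower level, had 115 and 102 normalized counts on Matrigel, 223, 249.98 and 258 with VN, and 268, 286 and 279 with VNP2. The 3 groups did not overlap, and VNP2 was the highest. The rise over Matrigel was 2.24-fold on VN (SE 0.118 on the log2 scale) and 2.56-fold on VNP2 (SE 0.117), and both were called in every alternative fit run and without each library in turn. The VNP2 libraries were 0.19 higher than VN on the log2 scale (95% interval -0.02 to 0.40, adjusted p = 0.311, edgeR). INSM1 was thus highest on VN and INSM2 on VNP2 by group mean, neither difference being called.

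**Figure D3:**
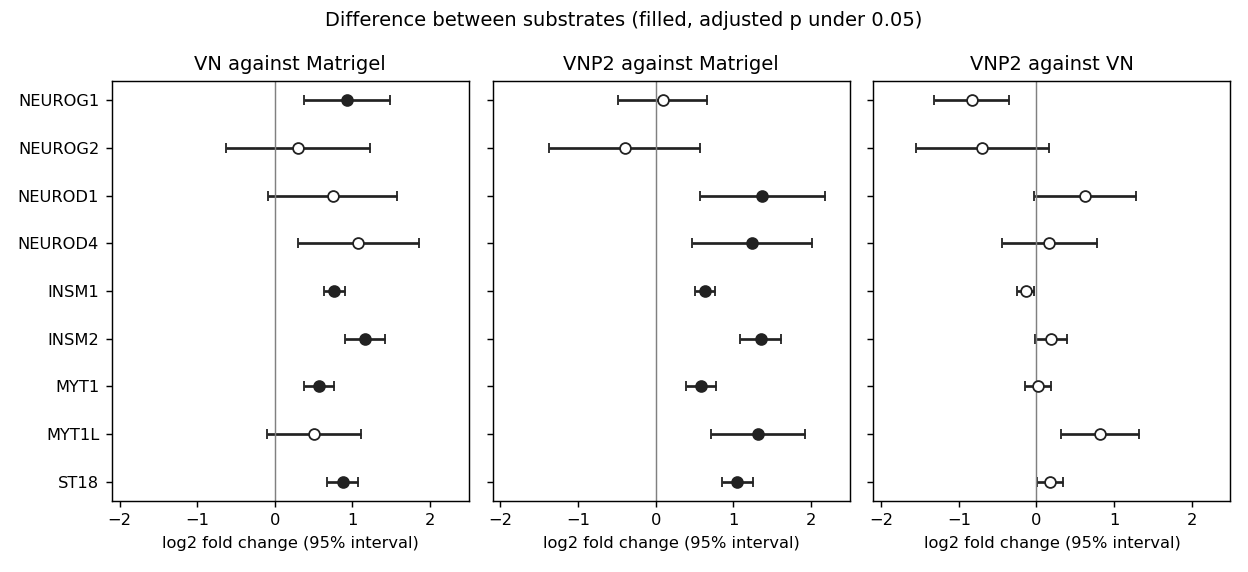
Log2 fold change of each factor with its 95% interval in the 3 comparisons of substrates, from the edgeR fit of all 8 libraries; filled points have an adjusted p under 0.05. INSM1, INSM2, MYT1 and ST18 are filled against Matrigel on both VN and VNP2, and no point is filled for VNP2 against VN.

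The MYT1 family encodes factors with clusters of a CCHC-type zinc finger. MYT1 itself had 436 and 516 normalized counts on Matrigel, 712, 702 and 698 with VN, and 659, 753 and 729.9 with VNP2. It rose 1.48-fold on VN (log2 fold change 0.57, SE 0.0877, adjusted p = 0.00183, edgeR) and 1.5-fold on VNP2 (0.59, SE 0.0874, adjusted p = 0.00108), and the VN and VNP2 libraries overlapped (difference 0.02, 95% interval -0.15 to 0.19). With the older annotation, the MYT1 mean was 0.947 to 0.962 of that in the authors' table.

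ST18, also known as MYT3, had 365 and 312 normalized counts on Matrigel, 628, 590.1 and 640.4 with VN, and 654, 736 and 707 with VNP2. After scaling, the 3 groups did not overlap. Estimated counts before scaling were 300 and 306 on Matrigel, 618, 659 and 645 with VN, and 654, 774 and 753 with VNP2. In these, VN and VNP2 overlapped. The average effective length used for scaling ran from 2879 bases in Matrigel replicate 2 to 3840 bases in VN replicate 2. The rise was 1.83-fold on VN (log2 fold change 0.88, SE 0.0912, adjusted p = 0.000134, edgeR) and 2.07-fold on VNP2 (1.05, SE 0.0910, adjusted p = 2.41e-05). VNP2 exceeded VN by 0.18 on the log2 scale (95% interval 0.01 to 0.34), which was not called (adjusted p = 0.227).

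MYT1L, the family member most restricted to neurons, was highest on VNP2. Its normalized counts were 38.5 and 66.2 on Matrigel, 63.6, 95.8 and 58.9 with VN, and 119, 126 and 137 with VNP2. The VNP2 libraries lay above all others, and those on Matrigel and VN overlapped. MYT1L rose 2.5-fold on VNP2 over Matrigel (log2 fold change 1.32, SE 0.274, adjusted p = 0.00788, edgeR). The differences of VN from Matrigel (0.50, adjusted p = 0.253) and of VNP2 from VN (0.82, adjusted p = 0.0728) were not called.

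The size of the MYT1L difference depended on how Salmon spread its reads over transcripts. Estimated counts before scaling were 51.0 and 52.0 on Matrigel, 86.0, 97.0 and 79.0 with VN, and 109, 94.0 and 105 with VNP2, which sets VN close to VNP2. The average effective transcript length used for scaling ranged from 2598 to 4691 bases, and the VNP2 libraries had the shortest lengths, together with Matrigel replicate 3 (2750 bases). Without length offsets, MYT1L was called on VN (log2 fold change 0.73, adjusted p = 0.00867) as well as on VNP2, and VNP2 exceeded VN by 0.22 rather than 0.82. Without Matrigel replicate 2, which had an average length of 4658 bases, the difference of VNP2 from Matrigel was 0.95 and was no longer called (adjusted p = 0.0949). Salmon gave counts to 39 of the 69 MYT1L transcripts in some library, to 5 to 15 of them in any 1 library, and to 1 in every library.

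For the other family members, Salmon gave counts in every library to 2 of the 6 MYT1 transcripts and 3 of the 24 ST18 transcripts. Shares varied between libraries, with MYT1-203 at 20.2% to 44.7% of the MYT1 TPM among the VN libraries. MYT1-201 held 55.0% ± 0.687 (SD, n = 2) of the MYT1 TPM on Matrigel, 52.0% ± 4.92 (n = 3) on VN and 47.1% ± 6.62 (n = 3) on VNP2. MYT1-203 held 31.2% ± 10.3, 34.7% ± 12.8 and 46.3% ± 5.19. For ST18-201 the shares of the ST18 TPM were 45.4% ± 6.62, 53.3% ± 2.75 and 54.6% ± 3.72, but 82.5%, 87.3% and 88.1% as shares of estimated counts. These shares are model estimates, and no test was run on them.

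Between VNP2 and VN, none of the 9 genes was called in edgeR, beside 5.10% of all genes, 3.09% higher and 2.01% lower on VNP2. At an unadjusted p under 0.05 there were 4, with NEUROG1 and INSM1 lower and MYT1L and ST18 higher on VNP2. DESeq2 called 1 of the 7 members to which it gave an adjusted p, MYT1L (log2 fold change 0.81, adjusted p = 0.0443). MYT1L was also called in edgeR without VN replicate 2 (1.05, adjusted p = 0.0365), and NEUROG1 without VN replicate 1 (-0.94, adjusted p = 0.0350). The libraries did not overlap for 6 of 9 genes, 4 of them higher on VNP2, as for 23.6% of all genes in either direction and 12.7% in the higher one. The 928 genes called in all became 1996 without VN replicate 1, 582 and 578 without VN replicates 2 and 3, and 547 and 549 without VNP2 replicates 1 and 3.

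To place the members, the 3 genes most like each of the 6 called across substrates were found by Pearson's r of log2 normalized counts over the 8 libraries, among genes with a mean of at least 100. The libraries fall into 3 substrate groups, so that r mainly reflects the order of the group means and is a description only. ST18 was most like HEY1 (r = 0.990), INSM2 (0.988) and SHD (0.986), the second of these being itself a member. INSM1 followed SHISA2 (0.993), CECR2 (0.992) and EPHA4 (0.990), and INSM2 followed PLCL1 (0.993), NREP (0.992) and TEAD2 (0.991). MYT1 was nearest to METTL7A (0.994), SPRYD4 (0.984) and FBXL19-AS1 (0.981). The genes nearest to MYT1L were STAG1 (0.983), USP44 (0.959) and ZBTB6 (0.955), and those nearest to NEUROG1 were ANTXR1 (0.984), AC096772.1 (0.982) and RHNO1 (0.978), the last with means of 2325 on Matrigel and 2671 on VN.

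Among 14 further bHLH factors of proneural and neuronal type, 6 could be tested. OLIG3, a factor of the dorsal neural tube, resembled NEUROG1 at a lower level, with mean normalized counts of 7.12, 23.8 and 5.91; it rose by 1.73 on VN (adjusted p = 0.0147) and was lower on VNP2 than on VN (-1.99, adjusted p = 0.00849). Without Matrigel replicate 3, OLIG3 was not called on VN (1.36, adjusted p = 0.143, edgeR). ATOH8 fell by 0.46 on VN (adjusted p = 0.00503). NEUROG3, the endocrine neurogenin, and NEUROD2 and NEUROD6, which mark cortical neurons, were too low to test, and NEUROD6 was listed at 0 in every library.

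Several partners and inhibitors of the bHLH factors were highest on VNP2. Of 7 E proteins and ID inhibitors, all tested, 2 rose on VN and 4 on VNP2 over Matrigel, and between VNP2 and VN 4 were higher and 1 lower. ID1 and ID3, which sequester E proteins, were higher on VNP2 than on VN by 0.89 (SE 0.107, adjusted p = 0.000886, edgeR) and 0.54 (SE 0.0507, adjusted p = 0.000201). ID2 was higher by 0.32 and the E protein TCF12 by 0.18, whereas ID4 was lower by 0.28 on the log2 scale (-0.28, adjusted p = 0.00122). The TCF12 difference was 0.10 and not called without length offsets. ID3 reached 157, 170 and 245 TPM, far above every neurogenin and NEUROD factor. TCF4, another E protein, rose by 0.27 on VN (adjusted p = 0.0179). The VN calls of both TCF4 and ID4 were lost without Matrigel replicate 2 and without Matrigel replicate 3.

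The Notch pathway changed in both directions. Of 12 Notch receptors, HES or HEY repressors and cofactors tested, from a list of 13, 3 rose and 2 fell on VN, 4 rose and 2 fell on VNP2, and 1 was higher and 2 lower on VNP2 than on VN. The receptor NOTCH1, counted here as not called, lost nearly all of its counts in the match to the older annotation, with means of 47.9 to 63.8 beside 6742 to 6992 in the authors' table, so that its result is uninformative. HES5, a Notch-induced repressor of proneural genes, had mean normalized counts of 836, 1284 and 995, and was raised on VN (log2 fold change 0.62, adjusted p = 0.000678, edgeR) and lower on VNP2 than on VN (-0.37, adjusted p = 0.0145). The latter call was lost without length offsets (-0.33) and without VN replicate 3 (-0.37), VNP2 replicate 1 (-0.32) or VNP2 replicate 2 (-0.35). HEY2 was higher on VNP2 than on Matrigel (0.72, adjusted p = 0.000854) and than on VN (0.67, adjusted p = 0.00193). HEY1 rose on both (0.44 and 0.56), and NOTCH4 rose on VNP2 (0.47). The receptors NOTCH2 (-0.28 and -0.37) and NOTCH3 (-0.28 and -0.25) fell on VN and VNP2, those of NOTCH3 not being called without length offsets (-0.16 and -0.14) or without Matrigel replicate 3 (-0.22 and -0.20).

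Many known targets of proneural factors were higher on VN and VNP2 than on Matrigel. Of 26 genes known to be induced by proneural factors, all tested, 15 rose and 1 fell on VN, and 14 rose and 2 fell on VNP2. The list's median log2 fold change was 0.29 on VN and 0.33 on VNP2. SCRT2 and SCRT1, neuronal repressors of the Snail family, rose by 0.68 and 0.51 on VN and by 0.98 and 0.89 on VNP2. The Notch ligand DLL3 rose by 0.56 and 0.74, and SRRM4, which drives neuronal splicing and opposes REST, by 0.60 and 0.67. EBF2, a factor of differentiating neurons, was called on VNP2 (1.10, SE 0.125, adjusted p = 0.000169, edgeR) and not on VN (0.25), and VNP2 exceeded VN (0.85, adjusted p = 0.00120). CBFA2T3 was called on VNP2 (0.81). Between VNP2 and VN 1 gene was higher and 2 were lower. With Matrigel replicate 2 or Matrigel replicate 3 left out, 8 rather than 15 were called higher on VN.

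The next list held the complexes that silence neuronal genes or that INSM1 recruits. Of 13 genes for REST and its corepressors, 1 rose on VN and 2 rose on VNP2, beside 5.66% and 7.44% of all genes, with GSE1 rising on both (0.26 and 0.29), and none was called between VNP2 and VN in edgeR, DESeq2 or any other alternative, with 1 at an unadjusted p under 0.05 in edgeR. REST itself had 21.4 to 25.6 TPM and was not called in any pair.

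**Figure D4:**
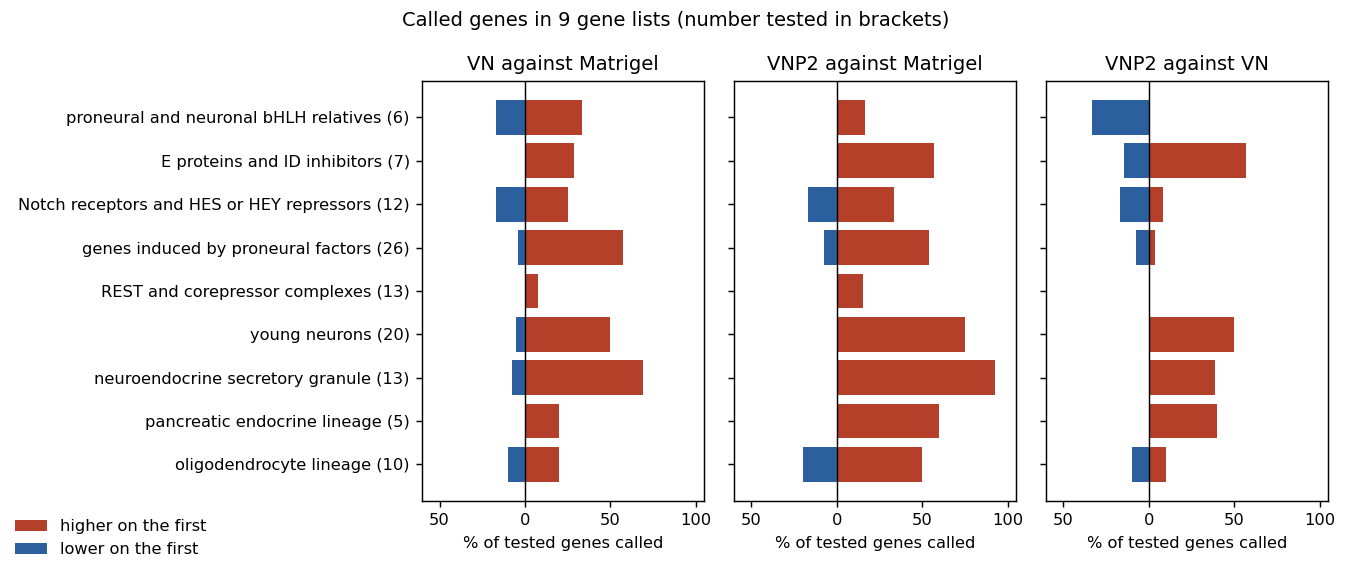
Share of the tested genes of 9 lists that were called higher (red, to the right) or lower (blue, to the left) on the first-named substrate, in percent, for the 3 comparisons; the number tested stands in brackets. Granule genes reach 12 of 13 higher on VNP2 than on Matrigel, and REST and its corepressors at most 2 of 13.

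Against Matrigel, many genes of young neurons rose, as did most members. Of 20, 10 rose and 1 fell on VN, 15 rose and none fell on VNP2, and 10 were higher on VNP2 than on VN. In that last comparison none of the 9 members was called. The means of NEUROG1, NEUROG2 and INSM1 were lower on VNP2 than on VN, and those of the other members higher. DCX, a microtubule protein of migrating neurons, rose by 0.52 on VN and 0.72 on VNP2, and STMN2 by 0.50 and 0.72. SYT4 rose by 0.42 and 0.84, ELAVL4 by 0.60 and 0.79, and NSG2 by 0.47 and 0.60, the means of ELAVL4 being 0.835 to 0.872 of those in the authors' table. NEFM, a neurofilament subunit, differed most between VNP2 and VN (0.56, SE 0.0333, adjusted p = 1.36e-05, edgeR). The summed level of the 20 genes was 1799 to 1823 TPM on Matrigel, 1994 to 2074 TPM on VN and 2210.1 to 2244 TPM on VNP2, and TUBB3 was not called. None of these defining markers was at 0, and their part in the differences of the 9 factors was not tested. Without Matrigel replicate 3, 6 rather than 10 were called higher on VN.

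INSM1 is also required in neuroendocrine cells, but its part in the differences of the granule genes below was not tested. Of 13 genes of the secretory granule, 9 rose and 1 fell on VN, and 12 rose and none fell on VNP2. Among all genes, 5.66% were called higher on VN and 7.44% on VNP2. Of the 13, 5 were higher on VNP2 than on VN, beside 3.09% of all genes. PCSK2, a prohormone convertase, rose by 0.79 on VN (SE 0.0678) and 1.14 on VNP2 (SE 0.0677), and SCG3 by 0.62 and 0.94. CHGB rose by 0.46 and 0.79, CHGA by 0.49 and 0.70, PCSK1 by 0.57 and 0.65 and SYP by 0.40 and 0.56. Without Matrigel replicate 2 the counts called higher were 4 on VN and 7 on VNP2. Those between VNP2 and VN fell to 2 without VN replicate 2 and to 3, 2 and 1 without VNP2 replicates 1, 2 and 3.

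Several defining genes of pancreatic endocrine cells were at or near 0. INS, GCG and PAX4 were listed at 0 in every library, and PDX1 reached at most 0.0239 TPM. Of 12 genes of that lineage 5 were tested, of which 1 rose on VN and 3 on VNP2, and 2 were higher on VNP2 than on VN. That last count was 0 without VN replicate 2 or VNP2 replicate 3, 1 without VN replicate 3, VNP2 replicate 1 or VNP2 replicate 2, and 4 without length offsets. Among those called on VNP2 were SST (0.98) and NKX6-1 (0.49), which neural cells also express. NKX6-1 is also on the list of neural progenitors, as is HES5 of the Notch list.

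Markers of other cell types moved as follows, and their part in the differences of the 9 factors was not tested. Of 10 oligodendrocyte lineage genes tested from 16, 2 rose and 1 fell on VN, 5 rose and 2 fell on VNP2, and 1 was higher and 1 lower on VNP2 than on VN. Here OLIG1 rose by 0.30 on VN and 0.41 on VNP2, NKX2-2 by 0.34, CSPG4 by 0.66 and PDGFRA by 0.33 on VNP2, whereas MYRF, the factor of myelinating cells, fell by 0.87 and 0.68 and MBP fell by 0.41 on VNP2. The MBP call was lost in 7 of 16 alternatives (log2 fold change -0.57 to -0.31), and without Matrigel replicate 2 neither MYRF nor MBP was called lower on VNP2. With Matrigel replicate 2 or Matrigel replicate 3 left out, 3 rather than 5 of these were called higher on VNP2. Summed levels of this list were 216 to 217 TPM on Matrigel, 244 to 254 TPM on VN and 245 to 257 TPM on VNP2.

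Of 11 neural progenitor genes tested, 3 rose and 2 fell on VN and likewise on VNP2, and 3 were higher and 1 lower on VNP2 than on VN. VIM fell by 0.46 and 0.24 and NES fell by 0.28 and 0.33, while FABP7 rose by 0.41 on VNP2 and SOX1 by 0.28 on VN. Summed levels were 3701 to 3770.1 TPM on Matrigel, 3205 to 3260.1 TPM on VN and 3488 to 3528 TPM on VNP2, with PAX6 at most 0.179 TPM. Without Matrigel replicate 3, 1 rather than 3 was called higher on VN and on VNP2, and without VN replicate 1, 5 were called higher on VNP2.

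Of 5 astrocyte genes tested, 1 fell on VN, 1 rose and 1 fell on VNP2, and 2 were higher on VNP2 than on VN. GJA1, a gap junction protein shared with progenitors, fell by 0.82 on VN and 0.59 on VNP2, and SLC1A3 rose by 0.28 on VNP2, with GFAP and AQP4 at most at 0.401 and 0.153 TPM. Summed levels of the astrocyte list were 210.4 to 221 TPM on Matrigel, 131 to 143 TPM on VN and 158 to 167 TPM on VNP2. Of 7 neural crest genes tested, 1 rose on VN, 3 rose and 1 fell on VNP2, and 1 was higher and 1 lower on VNP2 than on VN. SOX9 rose by 0.45 on VN and 0.37 on VNP2, TFAP2A by 1.0 on VNP2, NGFR by 0.36 on VNP2, and MITF fell by 0.53 on VNP2. Summed levels of this list were 70.1 to 72.3 TPM on Matrigel, 86.4 to 96.3 TPM on VN and 94.4 to 96.0 TPM on VNP2, with FOXD3 at most at 0.171 TPM.

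Of 9 mesenchymal genes, 3 rose and 2 fell on VN, 5 rose and 2 fell on VNP2, and 2 were higher and 1 lower on VNP2 than on VN. COL1A1 fell by 0.54 and 1.41, PRRX1 fell by 0.40 and 0.58, and COL6A3 rose by 0.53 and 0.62. Without Matrigel replicate 3, 3 rather than 5 were called higher on VNP2. Summed mesenchymal levels were 445 to 457 TPM on Matrigel, 491 to 507 TPM on VN and 425 to 449 TPM on VNP2. Of 8 pluripotency genes, 1 fell on VN, 1 rose and 3 fell on VNP2, and 2 were lower on VNP2 than on VN. POU5F1 fell by 1.26 on VNP2 over Matrigel, TDGF1 fell by 1.5, LIN28A fell by 0.56 on VN and 0.67 on VNP2, and NANOG stayed at 0.392 TPM or less. Summed levels of the pluripotency list were 93.5 to 98.6 TPM on Matrigel, 84.3 to 86.5 TPM on VN and 77.2 to 80.9 TPM on VNP2.

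The members with a RefSeq promoter were also searched for short motifs upstream of their RefSeq starts, whether or not they had been called. These promoters (GRCh38.p14) were matched by symbol for 7 of the 9 genes, all but INSM1 and ST18, in 10 windows of 250 bases before a RefSeq start. The windows of NEUROD1, MYT1 and MYT1L lie wholly within the GENCODE genes given above, and those of INSM2 and NEUROD4 in part. E boxes (CANNTG, on both strands) were found in 4 of the 10 windows, beside 61.8% of 35116 promoters of the same length. MYT1L alone has 4 of the 10 windows, so that the windows do not stand for 10 separate genes. The 3 windows below are shown since they belong to both neurogenins and to NEUROD4, the bHLH gene with E boxes, in capitals.

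NEUROG1, chr5:135535965-135536214, minus strand: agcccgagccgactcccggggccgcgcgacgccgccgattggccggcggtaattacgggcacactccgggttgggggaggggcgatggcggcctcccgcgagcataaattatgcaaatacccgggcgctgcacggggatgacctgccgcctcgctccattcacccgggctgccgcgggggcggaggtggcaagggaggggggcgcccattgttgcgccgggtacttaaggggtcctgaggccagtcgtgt

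NEUROG2, chr4:112516181-112516430, minus strand: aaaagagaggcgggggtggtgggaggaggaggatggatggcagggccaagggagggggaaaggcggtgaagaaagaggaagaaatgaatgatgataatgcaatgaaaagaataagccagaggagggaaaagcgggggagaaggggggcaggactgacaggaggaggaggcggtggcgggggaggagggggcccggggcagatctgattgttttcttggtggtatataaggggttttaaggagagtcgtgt

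NEUROD4, chr12:55019724-55019944, plus strand: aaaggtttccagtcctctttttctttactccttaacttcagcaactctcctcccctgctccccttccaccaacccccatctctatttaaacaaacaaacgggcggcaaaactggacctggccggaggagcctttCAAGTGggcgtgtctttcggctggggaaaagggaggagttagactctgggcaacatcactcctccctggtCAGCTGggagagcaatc

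The 2 E boxes of NEUROD4 (CAAGTG and CAGCTG) begin 116 and 46 bases before its RefSeq start, and the last 29 bases of that window, which lie inside the GENCODE gene, are left out above. CAGCTG, which is also counted among the E boxes, occurred in 14.0% of all promoters and CAGATG in 12.2%. The other 3 windows with an E box were MYT1L starts, 1 of which held CAGATG. The windows of NEUROG1, NEUROG2, NEUROD1, INSM2 and MYT1 held none, which says only that these letters are not in those windows. The N box CACNAG, which HES repressors bind, was found in 1 MYT1L window and in 32% of all promoters, TGGGAA, the core bound by RBPJ, in 1 MYT1L window and 20.8% of all, and AAGTT, bound by the MYT1 family, in 3 MYT1L windows and that of NEUROD4, beside 30.3% of all. TATAAA was found in the INSM2 window, 29 bases before its RefSeq start, and in 10.7% of all promoters. That position lies inside the GENCODE gene, downstream of the GENCODE start.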

How the data were processed

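Total RNA of H9-derived OPCs was made into stranded, poly(A)-selected libraries. The authors trimmed reads with Trim Galore and ran Salmon on GENCODE v32 transcripts (GRCh38.p13), and deposited estimated counts and TPM per transcript for each library, neither pooled nor filtered. They also deposited normalized counts per gene, a signal made with DESeq2 (1.27.12 per the labels), which is on the counts scale after size and length factors. Salmon's version and strand setting are not given in the sources used here.

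Transcripts were matched by identifier to GENCODE v29 (205225 of 226608, holding 98.79 to 98.88% of the counts), summed per gene and rounded. One quasi-likelihood fit of all 8 libraries (edgeR 4.0.16, R 4.3.3, TMM, length offsets, filterByExpr with minimum count 10 and total 15, common dispersion 0.0037) was tested two-sided, with adjustment over 18201 genes. SE is the log2 fold change divided by the root of F. Intervals are at 95%. Alternatives were DESeq2 1.42.0, RLE, no offsets, no filter, a stricter filter (50 counts or more in each library), a block for replicate number, the libraries of a pair alone, limma 3.58.1 on the authors' normalized counts as log2 values (pseudocount 1), and each library left out. On simulated data for VNP2 against Matrigel, 198 of 200 genes changed by 1 on the log2 scale and 9 unchanged genes were called among 17955. The changed genes were drawn from those with a mean of at least 50 counts, and all genes had the same dispersion. The simulation thus does not cover NEUROG1, NEUROG2, NEUROD1 and NEUROD4, whose mean counts over the 8 libraries were lower.

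The 9 members and the gene lists were chosen with earlier results of these data known: bHLH relatives, E proteins and ID inhibitors, Notch, targets of proneural factors, REST and corepressors, young neurons, secretory granule, pancreatic endocrine, oligodendrocyte lineage, progenitors, astrocytes, neural crest, mesenchymal cells and pluripotency. Named genes are the members, up to 6 called genes per list with the largest change in any pair, defining markers with their levels, and the 3 genes most like each member called across substrates. Sequences are from RefSeq promoters (GRCh38.p14) and GENCODE v29 transcripts, and Python was 3.11.15. Results for a few genes are not reported here.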

Additional observations from a re-analysis of the deposited data

How the results depend on the processing

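The calls of INSM1, INSM2, MYT1 and ST18 against Matrigel held under all alternatives. On VN over Matrigel, 7 members were called without length offsets and 6 with limma. With DESeq2, with the stricter filter or in the fit of the pair alone, 4 were called on VN. Between VNP2 and VN, 0 members were called in the main fit. MYT1L alone, higher on VNP2, was called with DESeq2, with at least 50 counts in every library and in the fit of the pair alone. NEUROG1 alone, lower on VNP2, was called without length offsets. Both were called without a filter. Leaving out each library in turn gave 4 to 5 members on VN and 4 to 7 on VNP2 over Matrigel, with 4 without Matrigel replicate 2, 0 to 1 between VNP2 and VN, and 5 to 6 across substrates. Where a Matrigel library was left out, the lone one was assumed to vary like the other groups. Calls against Matrigel then fell over all tested genes too, so that fewer calls in a list are not particular to that list. With each library left out, the log2 fold change of NEUROG1 on VNP2 over Matrigel ranged from -0.024 to 0.22, at -0.024 without Matrigel replicate 3 and -0.021 without VNP2 replicate 2, and that of MYT1 on VNP2 over VN from -0.020 without VNP2 replicate 2 to 0.074, none of them called. As shares of estimated counts instead of TPM, MYT1-201 held 63.5% on Matrigel and 59.9% on VN, and ST18-201 held 82.5% on Matrigel, 87.3% on VN and 88.1% on VNP2, short transcripts weighing more in TPM. Libraries of the same number did not deviate together, so the numbers were not taken as pairs. With a replicate block, 5 members were called on VN, 5 on VNP2, 0 between VNP2 and VN and 6 across, NEUROD1 and NEUROD4 losing their calls on VNP2. DESeq2 gave no adjusted p for 3 members on VN. Counts below about 30 per library limit NEUROG2, NEUROD1 and NEUROD4. For named genes of the lists, called fold changes kept their direction under every setting, and 138 of them lost their call in one, beside 1884 that kept it, each gene, comparison and setting counted once. List counts of 2 or fewer moved by up to 2 in 1 or more settings, among them neural crest genes higher on VN (1, and 3 without a filter) and pancreatic endocrine genes higher on VNP2 than on VN (2, 4 without length offsets, 1 with the stricter filter, and 0 to 1 without VN replicate 2 or 3 or any 1 VNP2 library). Pluripotency genes lower on VNP2 than on Matrigel numbered 3, and 1 with the stricter filter.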
